A study of Mus musculus with 6 samples.

Results

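Keratins and the proteins of the cornified envelope make up most of the outer layer of skin, and their transcripts were examined here in B16-F1 melanoma tumours to see how much of a skin signal the tumours carried and whether it differed with the host. The genes were all those whose annotated symbol is Krt, Lce or Sprr followed by a number, together with Flg, Ivl and Lor, and keratin-associated protein genes were not among them. On the array 85 such genes had a probe set of their own, out of 22180 genes in all. They comprise 18 type I and 17 type II epithelial keratins, 9 type I and 6 type II hair keratins, 3 other Krt genes, 18 Lce genes, 11 Sprr genes, and Flg, Ivl and Lor. Another 8 genes of these families in the reference gene table, Krt5, Lce1c, Lce1d, Lce1j, Sprr2a1, Sprr2a2, Sprr2a3 and Sprr2i, had no probe set of their own and were not analysed here.

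The tumours were grown from B16-F1 cells, a pigmented mouse melanoma line, placed in the dorsal flank of mice of C57BL6 background and taken at day 20. Expression was measured on 1 Affymetrix array per tumour in 3 tumours from Stat2 KO hosts and 3 tumours from WT hosts. STAT2 is a transcription factor of type I interferon signalling. Only the host differs between the groups. Both groups received B16-F1 cells, which the labels do not describe as lacking Stat2, and the age of the mice, the form of the Stat2 allele and whether each tumour came from its own mouse are not given in the sources used here. P-values therefore measure the spread between these 6 tumours. In whole-tumour RNA fewer cells of a type and less RNA per cell cannot be told apart.

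Keratins are intermediate filament proteins that assemble only as pairs of a type I and a type II chain, and each layer of an epithelium uses its own pair. Basal cells of the epidermis use keratins 5 and 14, the layers above them keratins 1 and 10, simple epithelia keratins 8 and 18, and the hair shaft a separate set of hair keratins. In the outermost cells filaggrin bundles the keratin filaments, and involucrin, loricrin, the small proline-rich (Sprr) proteins and the late cornified envelope (Lce) proteins are cross-linked by transglutaminases into the cornified envelope. Melanocytes and melanoma cells arise from the neural crest and build no cornified envelope.

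Most of the 85 genes lay within the range of olfactory receptor genes, mainly in its upper part. The mean log2 level of the 85 genes over the 6 tumours had a median of 5.94 and ranged from 2.78 to 7.71, against a median of 6.33 over all genes, and 59 of the 85 lay below the median gene. Olfactory receptor genes, whose main site of use is the nose, served as a scale for probe sets with little or no transcript. Their 1105 levels had a median of 5.21, a 5th percentile of 2.99 and a 95th percentile of 6.72, and 76 of the 85 genes lay between these percentiles. Only 8 lay above the 95th percentile, namely Lce3c (7.71), Sprr2b (7.43), Lce1m (7.21), Krt33a (7.10), Krt8 (6.99), Krt34 (6.99), Lce3d (6.90) and Krt42 (6.73), and 1 lay below the 5th. By the same scale 9.41% of the 85 genes stood above the 95th percentile, against 39.8% of all genes and 5.07% of the olfactory receptor genes themselves. A level above that percentile on 1 probe set does not show that a transcript is present, since probe sets also differ in their own background.

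**Figure D1:**
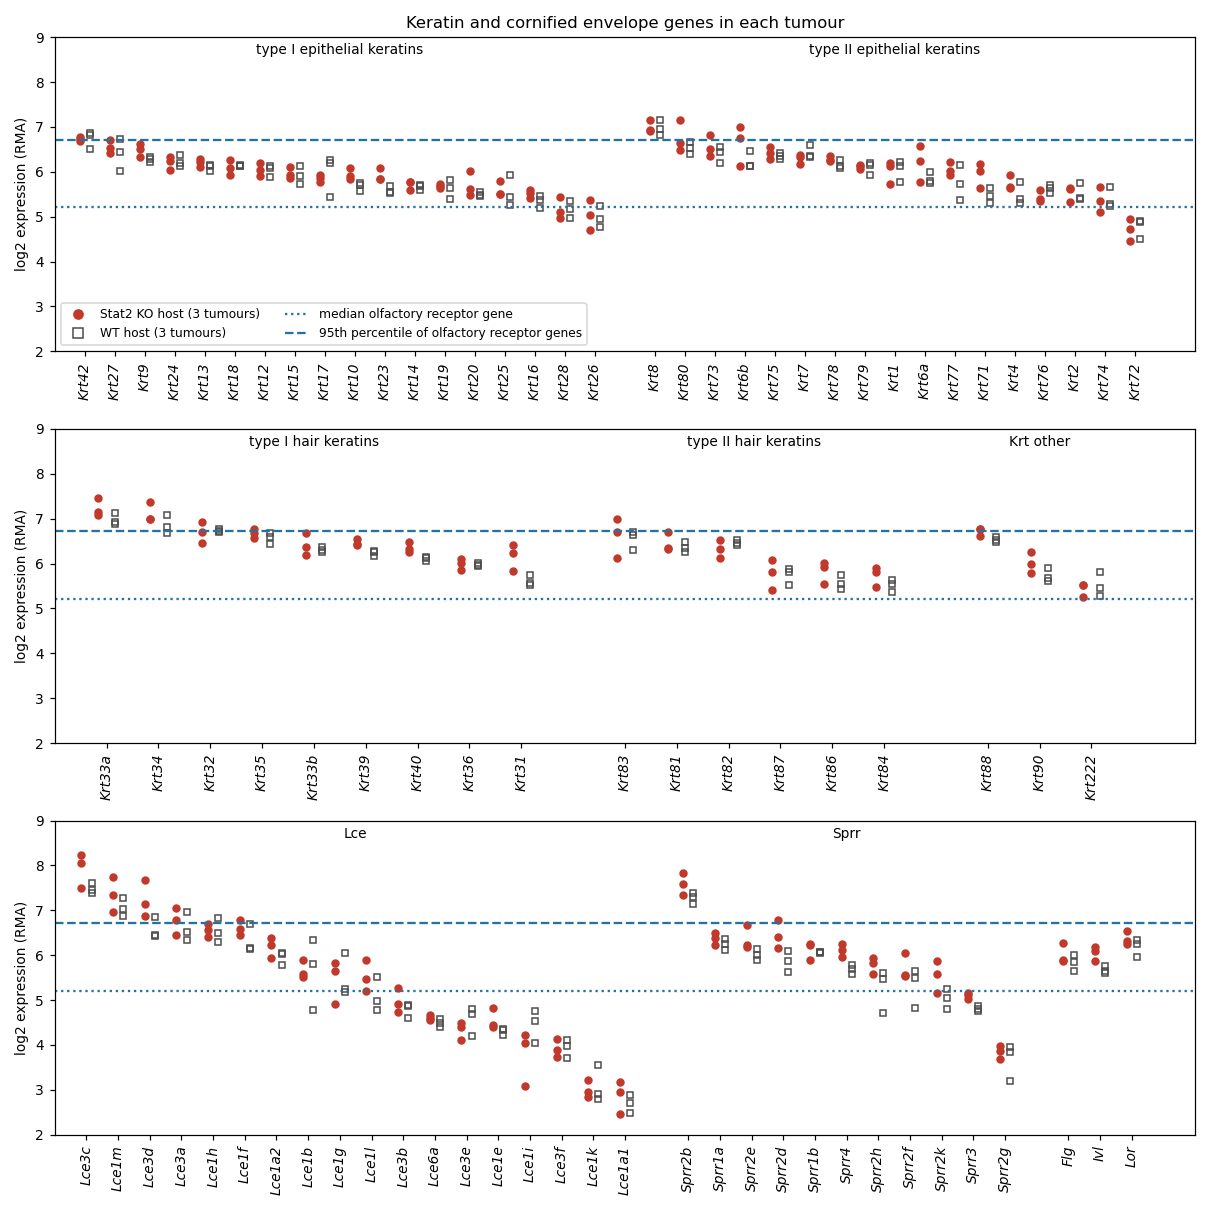
Log2 expression (y axis) of each of the 85 genes in the 3 Stat2 KO host tumours (red circles) and the 3 WT host tumours (open squares), ordered within each subfamily by mean level. The dotted and dashed lines mark the median (5.21) and the 95th percentile (6.72) of olfactory receptor genes, and most genes lie between them in all 6 tumours.

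Of the defining epidermal keratins measured, Krt14, Krt1 and Krt10 were within that range, and Krt5 was not measured alone. Krt14, the type I keratin of basal cells, had log2 levels of 5.78, 5.78 and 5.60 with Stat2 KO hosts and 5.69, 5.59 and 5.71 with WT hosts. All 6 tumours lay within 0.19 log2 units of each other, the groups overlapped, and the difference was 0.058 (95% interval -0.23 to 0.35, limma adjusted p = 0.904). Krt1, the type II keratin of the layers above, had 5.74, 6.14 and 6.19 with Stat2 KO hosts and 5.77, 6.12 and 6.22 with WT hosts. Its groups also overlapped throughout, with a difference of -0.014 (95% interval -0.38 to 0.35, limma adjusted p = 0.982). Its partner Krt10 had 5.85, 5.90 and 6.09 with Stat2 KO hosts and 5.58, 5.76 and 5.70 with WT hosts. Each Stat2 KO tumour lay above each WT tumour for Krt10, by a mean of 0.27 (SE 0.135), and the limma adjusted p was 0.592. Of the genes in this paragraph and the next, Krt14, Krt1, Krt10, Krt18, Krt16, Krt17, Krt6a and Krt6b fall outside the naming rule and were chosen for their place in the epidermis, with their values known.

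Krt8, the type II keratin of simple epithelia, was the highest of the type II epithelial keratins at 6.94, 7.16 and 6.92 with Stat2 KO hosts and 6.83, 7.16 and 6.96 with WT hosts. The groups overlapped and differed by 0.024 (95% interval -0.28 to 0.33, limma adjusted p = 0.967). Its partner Krt18 averaged 6.09 ± 0.170 with Stat2 KO hosts and 6.13 ± 0.016 with WT hosts on its brighter probe set (SD, n = 3 each). A second Krt18 probe set averaged 5.54 over the 6 tumours and differed by 0.23, where the brighter one differed by -0.045, so the probe sets of this gene did not point the same way. Krt7, another keratin of simple epithelia, was lower by 0.14 with Stat2 KO hosts, a log2 difference of -0.14 (SE 0.136, limma adjusted p = 0.769) with overlapping groups. Among keratins switched on in wounded and fast-growing epidermis, Krt6a, Krt6b and Krt16 differed by 0.36, 0.39 and 0.16 and Krt17 by -0.12, all with overlapping groups and limma adjusted p-values from 0.601 to 0.865.

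Levels of other gene groups placed the 85 genes beside the cells of the tumour. The 11 melanocyte markers measured all stood above the 95th percentile of olfactory receptor genes, with a median of 10.5, and the pigment enzyme gene Dct averaged 13.2 ± 0.101 with Stat2 KO hosts and 13.2 ± 0.139 with WT hosts (SD, n = 3 each). Of other intermediate filament genes, 6 of 15 stood above it, and Vim, the vimentin gene of mesenchymal and melanoma cells, averaged 12.6 in Stat2 KO and 12.7 with WT hosts. Of 11 basal keratinocyte markers measured, 3 stood above it, namely Dst, Sfn and Itga6 with means of 9.36, 7.81 and 7.77. Each of those is also used by other cells, and the median of this list was 6.09. Among 36 cornification partners, the genes of envelope cross-linking, barrier lipids and epidermal proteases, 4 stood above it and the median was 5.96. The brightest of them was Abca12, the lipid transporter of the epidermal barrier, at 8.01 ± 0.568 with Stat2 KO hosts and 8.71 ± 0.576 with WT hosts (SD, n = 3 each). Above it also stood 2 of 16 desmosome genes (median 5.63), 1 of 15 keratinocyte transcription factors (6.04), 2 of 16 hair follicle and shaft partners (5.99), 3 of 9 sebaceous gland markers (5.78) and 9 of 51 keratin-associated protein genes (5.41).

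**Figure D2:**
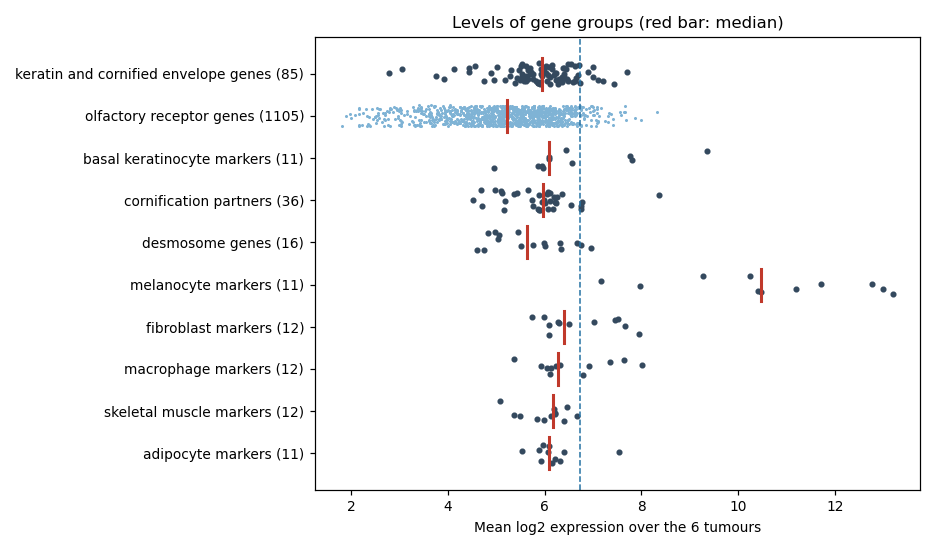
Mean log2 expression over the 6 tumours (x axis) of the genes of 10 groups, 1 point per gene, with the number of genes in parentheses, the group median as a red bar and the 95th percentile of olfactory receptor genes (6.72) as a dashed line. The keratin and cornified envelope genes (median 5.94) overlie the olfactory receptor genes, while melanocyte markers (median 10.5) lie to the right of the line.

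The skin signal of each tumour was expressed as the share of the summed linear signal of all genes that the 85 genes took up. It was 0.139%, 0.175% and 0.162% in Stat2 KO replicates 1, 2 and 3 and 0.124%, 0.134% and 0.148% in WT replicates 1, 2 and 3. Stat2 KO replicate 1 lay within the range of the WT tumours, so the groups overlapped. The 11 melanocyte markers took up 0.746% to 0.949% with Stat2 KO hosts and 0.840% to 0.996% with WT hosts. The 1105 olfactory receptor genes took up 1.27% to 1.55% with Stat2 KO hosts and 1.09% to 1.25% with WT hosts, without overlap. These shares are of array brightness, background included, and not of RNA molecules.

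The 85 genes were also summarised as a mean deviation, the average over genes of each tumour's log2 value minus that gene's mean over the 6 tumours. It was -0.015, 0.142 and 0.102 in Stat2 KO replicates 1, 2 and 3 and -0.179, -0.065 and 0.016 in WT replicates 1, 2 and 3. Stat2 KO replicate 2 held the highest value and WT replicate 1 the lowest, and Stat2 KO replicate 1 lay below WT replicate 3. Of the 85 genes, 34 were highest in Stat2 KO replicate 2 and 22 in Stat2 KO replicate 3, and 36 were lowest in WT replicate 1. The mean deviation of the olfactory receptor genes was 0.054, 0.074 and 0.201 with Stat2 KO hosts and -0.105, -0.178 and -0.045 with WT hosts. The median log2 level over all probe sets was 6.08, 6.22 and 6.17 on the Stat2 KO arrays and 6.06, 6.06 and 6.13 on the WT arrays, and the part of these array-wide levels in the result was not tested.

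**Figure D3:**
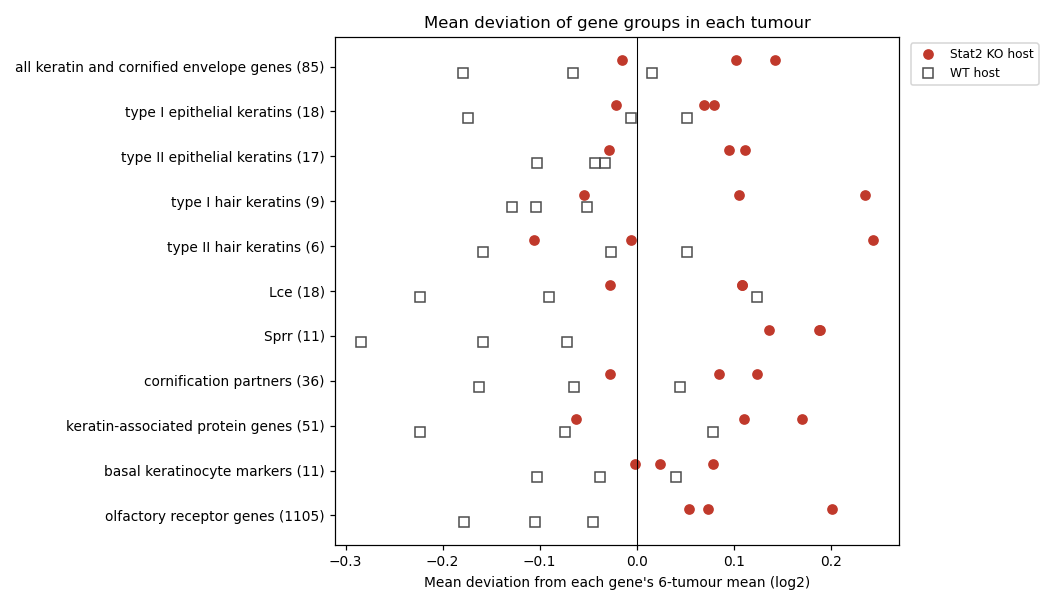
Mean deviation (x axis, log2) of gene groups in each Stat2 KO host tumour (red circles) and each WT host tumour (open squares), where 0 is each gene's mean over the 6 tumours. The Sprr genes (0.136 to 0.189 in Stat2 KO, -0.284 to -0.072 in WT) and the olfactory receptor genes separate the groups. The type II epithelial keratins do so narrowly (-0.028 to 0.112 in Stat2 KO, -0.103 to -0.033 in WT). The whole set of 85 genes does not.

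Comparison of Stat2 KO with WT hosts asked whether keratin and envelope transcripts differ with the genotype of the host. Of the 85 genes 68 were higher and 17 lower with Stat2 KO hosts, with a median log2 difference of 0.16 and a range of -0.66 to 0.67. Over all genes 54.0% were higher, with a median of 0.021, and of the olfactory receptor genes 81.7% were higher, with a median of 0.22. After a further quantile normalization, median centring and cyclic loess, 54, 52 and 54 of the 85 genes were higher and 31, 33 and 31 lower, where all genes were 51.5%, 39.7% and 49.5% higher. The number past a limma adjusted p of 0.05 was 0 of 85, where 0.00902% of all genes passed, 0.0% in the higher and 0.00902% in the lower direction. The smallest adjusted p among the 85 genes was 0.462. At an unadjusted limma p under 0.05 there were 11 higher genes, where 5.34% of all genes were called higher, and 1 lower gene, where 3.48% were called lower. Among olfactory receptor genes 260 of 1105 were higher and 6 lower at that p. Groups did not overlap for 15 of the 85 genes in the higher direction (8.23% of all genes) and 0 in the lower direction (5.11% of all genes), and for 236 and 9 of the olfactory receptor genes.

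Over the whole array the median difference was positive below a level of 7 and negative above it. Genes with a mean level below 4 had a median difference of 0.060 with 56.9% higher, and those from 4 to 5 had 0.096 with 68.2% higher, and of the keratin and envelope genes 2 of 4 and 4 of 7 were higher there. Genes with a mean level from 5 to 6 had a median difference of 0.12 with 76.4% higher, over 6013 genes, and the 33 keratin and envelope genes of that range had a median of 0.18 with 28 higher. In the range from 6 to 7 the median was 0.057 over 6228 genes, with 62.5% higher. The 37 genes of the families there had a median of 0.12, with 30 higher. From 7 to 8 the median of 3947 genes was -0.096, with 27.3% higher. The 4 family genes there had a median of 0.30 with 4 higher. Above 8, where the median of 3521 genes was -0.11 with 23.4% higher, there was no keratin or envelope gene.

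**Figure D4:**
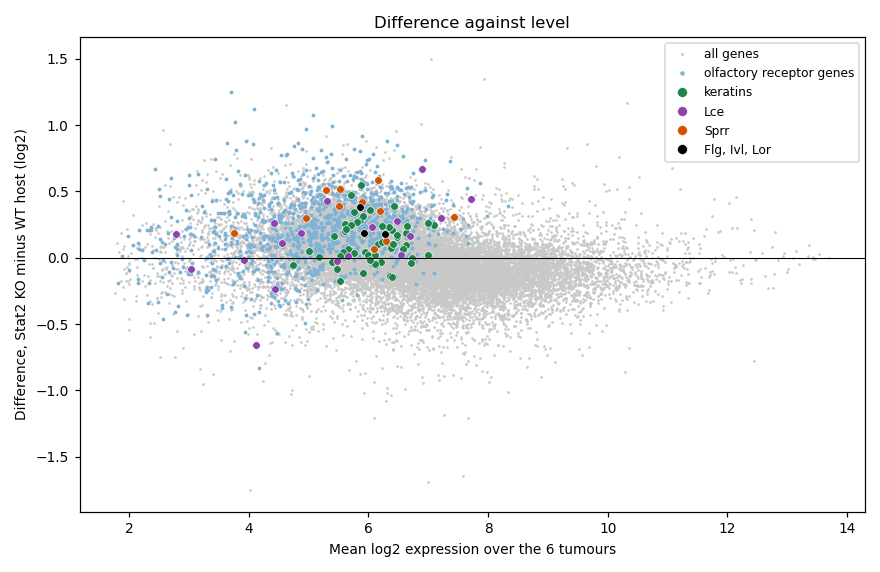
Log2 difference, Stat2 KO minus WT host (y axis), against mean log2 expression over the 6 tumours (x axis) for all 22180 genes (grey), olfactory receptor genes (light blue) and the 85 keratin and cornified envelope genes by family (large points). Most of the large points lie above 0, between levels of 5 and 7, where the olfactory receptor genes also lie above 0.

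The Sprr family held the widest separation among the families described. Sprr proteins are short proline-rich bridges between other envelope proteins, and several are induced in stressed epithelia. All 11 measured were higher with Stat2 KO hosts, with a median difference of 0.35 and a range of 0.067 to 0.58. Of these, 5 had an unadjusted p under 0.05 and 0 a limma adjusted p under 0.05, and for 4 the groups did not overlap. Over all genes 5.34% were called higher at the unadjusted p and 8.23% did not overlap, and over olfactory receptor genes 23.5% and 21.4%. After quantile normalization, median centring or cyclic loess 10 of 11 were higher, with medians of 0.33, 0.28 and 0.29, and without WT replicate 1 the count was 10 with a median of 0.27. Their mean deviation was 0.136, 0.188 and 0.189 with Stat2 KO hosts and -0.284, -0.158 and -0.072 with WT hosts, without overlap. The family's median level was 5.90, so that 10 of its 11 genes lay at or below the 95th percentile of olfactory receptor genes.

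Sprr2d had log2 levels of 6.79, 6.40 and 6.15 with Stat2 KO hosts and 5.62, 6.09 and 5.87 with WT hosts. All Stat2 KO values lay above all WT values, with the lowest Stat2 KO value close to the highest WT value, and the difference was 0.58 (SE 0.181, limma adjusted p = 0.472). Sprr4 had 5.97, 6.12 and 6.25 with Stat2 KO hosts and 5.70, 5.58 and 5.79 with WT hosts, also without overlap, and differed by 0.42 (SE 0.137, limma adjusted p = 0.486). Sprr2e differed by 0.35 (SE 0.157, limma adjusted p = 0.562), and its Stat2 KO values of 6.19, 6.23 and 6.68 lay above the WT values of 6.01, 5.90 and 6.14. Sprr2b, the brightest of the family, had 7.35, 7.82 and 7.58 with Stat2 KO hosts and 7.14, 7.38 and 7.30 with WT hosts, and its groups overlapped through Stat2 KO replicate 1 and WT replicate 2. Sprr2h and Sprr2f differed by 0.52 and 0.39 with overlapping groups, and each had 1 low WT value, 4.71 in WT replicate 2 for Sprr2h and 4.82 in WT replicate 1 for Sprr2f. Without those arrays the differences were 0.24 and 0.14. Sprr2b was at 0.19 without Stat2 KO replicate 2, against 0.31, and Sprr2e at 0.19 without Stat2 KO replicate 3. Sprr1a averaged 6.37 ± 0.141 with Stat2 KO hosts and 6.24 ± 0.122 with WT hosts (SD, n = 3 each) and differed by 0.13.

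Sprr genes lie beside Lce genes, Flg, Ivl and Lor in the epidermal differentiation complex, which is on mouse chromosome 3, and all 32 such genes measured map there. The type I keratins lie on chromosome 11, apart from Krt18, which lies with the type II keratins on chromosome 15. Median differences were 0.21 over the 32 genes of chromosome 3, 0.0965 over 27 of chromosome 11 and 0.088 over 26 of chromosome 15, with 27, 22 and 19 genes higher. Promoter windows of RefSeq, from 250 bases before to 50 after the start of transcription in GRCm38.p6, were listed for 65 of the 85 genes. They were searched on both strands for the AP-1 site TGANTCA, a binding motif of JUN and FOS proteins known in epidermal promoters, for the TATA box TATAAA, and for the core of the interferon-stimulated response element, which complexes with STAT2 bind. The GAS (interferon-gamma activated site) motif TTCNNNGAA was searched as well. Windows of 4 genes are shown, the brightest Sprr gene, the Sprr gene with the smallest p, involucrin, and Lce3d as the gene with the smallest p of all, with TGANTCA and TATAAA matches in capitals. The strand is + for Sprr2b, Sprr2d and Lce3d and - for Ivl, and positions are chr3:92316455-92316754 for Sprr2b, chr3:92338890-92339189 for Sprr2d, chr3:92573686-92573985 for Ivl and chr3:92957140-92957439 for Lce3d.
Sprr2b: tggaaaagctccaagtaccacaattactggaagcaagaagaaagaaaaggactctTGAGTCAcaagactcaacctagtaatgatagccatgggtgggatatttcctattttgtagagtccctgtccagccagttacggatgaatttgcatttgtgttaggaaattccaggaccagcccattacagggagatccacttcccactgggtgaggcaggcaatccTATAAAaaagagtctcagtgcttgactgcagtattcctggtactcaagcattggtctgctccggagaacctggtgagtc
Sprr2d: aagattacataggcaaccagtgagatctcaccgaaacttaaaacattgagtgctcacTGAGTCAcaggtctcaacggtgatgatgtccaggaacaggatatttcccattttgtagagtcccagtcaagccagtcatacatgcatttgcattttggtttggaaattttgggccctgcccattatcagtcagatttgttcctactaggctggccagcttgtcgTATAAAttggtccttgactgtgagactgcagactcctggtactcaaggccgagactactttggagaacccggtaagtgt
Ivl: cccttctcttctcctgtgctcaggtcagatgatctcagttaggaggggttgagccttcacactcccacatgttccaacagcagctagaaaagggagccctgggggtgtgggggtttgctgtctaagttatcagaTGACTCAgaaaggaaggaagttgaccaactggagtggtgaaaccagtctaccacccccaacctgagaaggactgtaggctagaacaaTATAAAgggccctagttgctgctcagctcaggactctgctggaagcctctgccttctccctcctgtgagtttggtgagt
Lce3d: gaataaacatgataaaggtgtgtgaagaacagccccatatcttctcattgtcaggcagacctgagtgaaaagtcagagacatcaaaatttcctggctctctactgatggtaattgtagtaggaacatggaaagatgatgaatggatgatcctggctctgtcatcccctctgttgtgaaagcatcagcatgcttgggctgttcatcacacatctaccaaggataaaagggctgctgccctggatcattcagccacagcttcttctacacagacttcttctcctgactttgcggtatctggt

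The windows of Sprr2b, Sprr2d and Ivl each hold 1 AP-1 match, beginning 195, 193 and 116 bases before the start, and 1 TATA box beginning 29 bases before it in each. The window of Lce3d holds no exact match to TGANTCA or TATAAA. Only exact matches were counted, in these and all other windows, so a TATA box of other letters was not counted. Of 10 Sprr windows 8 held an AP-1 match and 9 a TATA box, and of 17 Lce windows 0 and 3 did. Over all 27025 genes with a window, 7.93% held an AP-1 match and 14.2% a TATA box, and over the 65 keratin and envelope genes 18.5% and 52.3%. The response element core was found in 0 of the 65 windows and in 3.49% of all windows. The GAS motif was found in 5 of the 65 windows (7.69%) and in 8.47% of all windows. Among the 15 pairs of Sprr2 windows 64.0% to 89.3% of bases were identical in a global alignment, against 51.7% to 57.0% in the other 30 pairs of Sprr windows. A match of letters does not show a bound site, and probe sets of genes as close as the Sprr2 copies can read more than 1 transcript.

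The Lce family, components of the envelope added late, was mixed. Of 18 genes 13 were higher and 5 lower, with a median of 0.17. At an unadjusted limma p under 0.05 there were 2 higher and 1 lower, and 0 passed the adjusted threshold. These are 11.1% and 5.56% of the family, where all genes gave 5.34% and 3.48% and olfactory receptor genes 23.5% and 0.543%. Lce3d had the smallest p of the 85 genes and levels of 6.88, 7.14 and 7.68 with Stat2 KO hosts, against 6.84, 6.42 and 6.45 with WT hosts. The groups did not overlap, but Stat2 KO replicate 1 and WT replicate 1 were nearly level, and the difference was 0.67 (SE 0.199, limma adjusted p = 0.462). With array weights, which count the arrays unequally, the Lce3d difference was 0.96 and passed (limma adjusted p = 0.037). In that setting 1.18% of the 85 genes passed, against 1.16% of all genes and 5.88% of olfactory receptor genes. Over the alternatives its limma adjusted p lay between 0.037 and 0.908, and leaving out Stat2 KO replicate 3 gave 0.44. Lce3c, the brightest of the family, had 7.50, 8.23 and 8.06 with Stat2 KO hosts and 7.39, 7.46 and 7.60 with WT hosts, and differed by 0.45 (SE 0.181, limma adjusted p = 0.532) with Stat2 KO replicate 1 inside the WT range. Without Stat2 KO replicate 2 it differed by 0.29.

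Lce1i went the other way, with 4.23, 3.08 and 4.05 with Stat2 KO hosts and 4.04, 4.54 and 4.75 with WT hosts. Its groups overlapped, its difference was -0.66 (SE 0.289, limma adjusted p = 0.555), and without Stat2 KO replicate 2, the tumour at 3.08, it was -0.30. Its span of 1.68 was the widest of the 85 genes. Lce1b also spanned 1.56, with 5.52, 5.90 and 5.57 with Stat2 KO hosts and 4.78, 5.81 and 6.34 with WT hosts, so that both its lowest and its highest tumour were WT. Lce1m differed by 0.30 on its brighter probe set and by -0.53 on its other one, and Lce3e differed by -0.24 at a mean level of 4.44. Lce genes spread over the widest range of levels, from 2.78 to 7.71, and 8 of the 18 lay below the median olfactory receptor gene.

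The 3 single envelope genes were higher in the mean without passing the adjusted threshold. Ivl, the involucrin scaffold of the early envelope, had 5.87, 6.10 and 6.19 with Stat2 KO hosts and 5.61, 5.65 and 5.76 with WT hosts. The groups did not overlap, and the difference was 0.38 (SE 0.139, limma adjusted p = 0.509). Lor, the loricrin gene and in mature epidermis the main envelope component, had 6.31, 6.53 and 6.25 with Stat2 KO hosts and 5.97, 6.34 and 6.25 with WT hosts. Flg, which encodes profilaggrin, had 5.89, 6.28 and 5.88 with Stat2 KO hosts and 6.01, 5.65 and 5.84 with WT hosts. Both had overlapping groups and differed by 0.18, with 95% intervals that include 0. Leaving out 1 array gave 0.052 for Flg, without Stat2 KO replicate 2, and 0.071 for Lor, without WT replicate 1.

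Hair keratins had median levels of 6.36 for type I and 6.08 for type II, and 2 of the 9 type I genes stood above the 95th percentile of olfactory receptor genes. Of 9 type I hair keratins 8 were higher and 1 lower, with a median of 0.23, and of 6 type II hair keratins 5 were higher and 1 lower, with a median of 0.083. The type II direction rested on single arrays, with 2 higher and 4 lower without Stat2 KO replicate 2 (median -0.070) and 3 of each without WT replicate 1 (-0.0034) or after median centring (0.0084). The type I median was 0.13, with 6 higher and 3 lower, without Stat2 KO replicate 2. Krt31, a hair cortex keratin, had 5.83, 6.24 and 6.41 with Stat2 KO hosts and 5.51, 5.75 and 5.57 with WT hosts. Its groups did not overlap, and it differed by 0.55 (SE 0.165, limma adjusted p = 0.462). Krt33a and Krt34, the brightest of the type I hair keratins, differed by 0.25 and 0.26 with overlapping groups, both at 0.13 without Stat2 KO replicate 2, and Krt32 by -0.041. Of the type II hair keratins Krt83, Krt81 and Krt82 differed by 0.065, 0.10 and -0.14, each with overlapping groups. Krt83 ranged from 6.13 in Stat2 KO replicate 1 to 6.99 in Stat2 KO replicate 2, which spans all 3 WT tumours.

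Epithelial keratins had the smallest median differences of these families. Of 18 type I genes 14 were higher and 4 lower with a median of 0.0525. This direction turned to 7 higher and 11 lower after quantile normalization, median centring and cyclic loess (medians -0.018, -0.022 and -0.041), and to 8 higher and 10 lower without WT replicate 1 (-0.035). Of 17 type II genes 12 were higher and 5 lower with a median of 0.076, against 9 higher and 8 lower after median centring (0.00093) and a median of 0.037 after cyclic loess or without Stat2 KO replicate 2. At an unadjusted limma p under 0.05 there was 1 higher gene of each type, and 0 passed the adjusted threshold. At that unadjusted p 5.34% of all genes and 23.5% of olfactory receptor genes were called higher. Krt71, a keratin of the inner root sheath of the hair follicle, had 6.01, 5.65 and 6.17 with Stat2 KO hosts and 5.47, 5.64 and 5.31 with WT hosts. Stat2 KO replicate 2 and WT replicate 2 were nearly level, and the difference was 0.47 (SE 0.163, limma adjusted p = 0.498). Krt23 was the type I gene with an unadjusted p under 0.05, at 0.34, and is named with its value known. Krt27 and Krt73, also of the inner root sheath, differed by 0.16 and 0.17, Krt9 of palm and sole skin by 0.21, Krt80 by 0.24 and Krt42 by -0.0011. Krt76, a keratin of the oral lining, differed by -0.18 with overlapping groups. The 3 other Krt genes, Krt88, Krt90 and Krt222, differed by 0.19, 0.29 and -0.084. Leaving out Stat2 KO replicate 2 gave 0.037 for Krt73 and 0.17 for Krt90, leaving out Stat2 KO replicate 1 gave 0.042 for Krt80, and leaving out WT replicate 1 gave -0.033 for Krt27. Over the 85 genes the span between the lowest and the highest tumour had a median of 0.57 (0.52 over all genes), with 32 genes under 0.5 and 9 over 1.

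Other genes of the keratinocyte programme gave 0 calls at a limma adjusted p of 0.05 in any list. At an unadjusted limma p under 0.05, 5.34% of all genes were called higher and 3.48% lower, and 23.5% and 0.543% of olfactory receptor genes. Cornification partners were higher in 30 of 36 genes with a median of 0.17, and 3 were higher and 1 lower at an unadjusted p under 0.05. Of these Elovl4, which makes very long fatty acids of the barrier, differed by 0.51 and the protease gene Asprv1 by 0.41, while the lower gene, Abca12, differed by -0.70. Keratin-associated protein genes, which encode the matrix of the hair shaft, were higher in 37 of 51 with a median of 0.14, and 8 were higher and 1 lower at that p. Basal keratinocyte markers had a median of 0.058 with 9 of 11 higher, keratinocyte transcription factors 0.053 with 11 of 15 higher, desmosome genes 0.056 with 9 of 16 higher, and hair follicle and shaft partners 0.055 with 10 of 16 higher. At the unadjusted p these lists held 0, 0, 1 and 3 higher and 0 lower genes. After median centring the basal keratinocyte list turned to -0.017. Its 3 brightest genes, Dst, Sfn and Itga6, differed by -0.0105, 0.044 and -0.27. The 3 brightest desmosome genes, Jup, Pkp2 and Cdsn, differed by -0.21, -0.24 and -0.0075. Itga6 and Pkp2 were lower without overlap between the groups. Sebaceous gland markers had a median of 0.29 with 6 of 9 higher, 4 of them at that p, while the 3 brighter than the median gene, Scd1, Plin2 and Mgst1, differed by -0.37, -0.32 and -0.097.

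Markers of other cells that a flank tumour can hold are given beside these values. Macrophage markers were lower in 11 of 12 genes with a median of -0.30, fibroblast markers in 10 of 12 with -0.26, and melanocyte markers in 9 of 11 with -0.11. Skeletal muscle markers were higher in 9 of 12 with 0.13 and T cell markers in 9 of 10 with 0.076. Neutrophil markers were higher in 11 of 12 with 0.13 and adipocyte markers in 6 of 11 with 0.0076. Other intermediate filament genes were higher in 9 of 15 with 0.042. Of the muscle, T cell and neutrophil markers 0 stood above the 95th percentile of olfactory receptor genes, with median levels of 6.16, 5.84 and 5.72. Of all genes at levels from 5 to 6 and from 6 to 7, 76.4% and 62.5% were higher, and of olfactory receptor genes 81.7%. Above that percentile stood 5 of 12 macrophage, 5 of 12 fibroblast and 11 of 11 melanocyte markers. Summed as shares of linear signal, basal keratinocyte markers took up 0.0403% to 0.0447% with Stat2 KO hosts and 0.0389% to 0.0425% with WT hosts. The defining keratinocyte genes Krt14, Krt1 and Krt10 lay within the range of those receptor genes whichever the host. The part of other cell types in the differences was not tested.

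**Figure D5:**
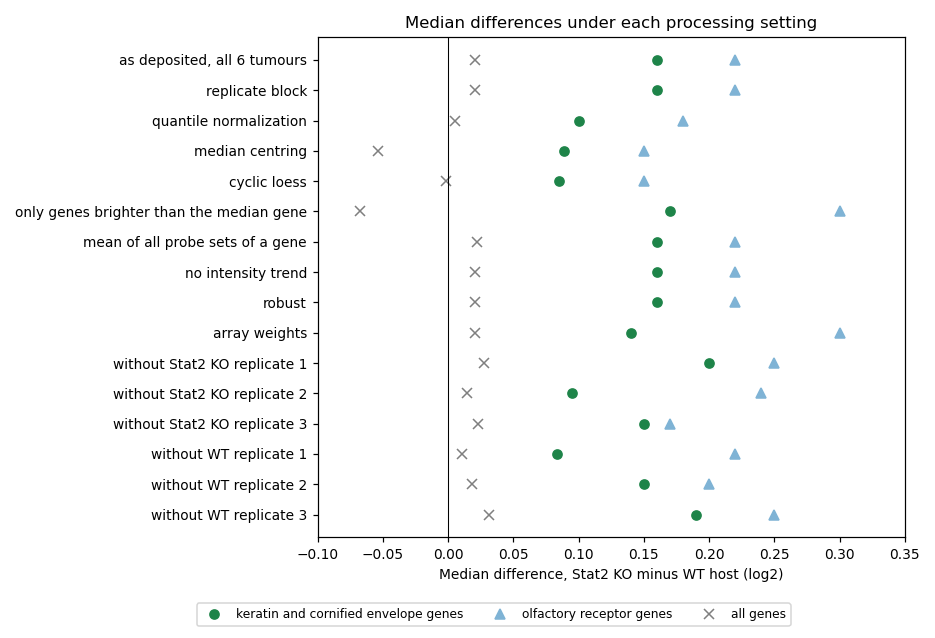
Median log2 difference, Stat2 KO minus WT host (x axis), of the 85 keratin and cornified envelope genes, of olfactory receptor genes and of all genes under each processing setting (rows). The median of the 85 genes lies between 0.083 and 0.20, above that of all genes and below that of the olfactory receptor genes in each of the 16 settings drawn.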

How the data were processed

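RNA of 6 tumours was hybridised to Affymetrix arrays, 1 per tumour. Log2 expression per probe set was deposited. The submitters' processing notes name RMA and Affymetrix Expression Console 1.3.1 as the authors' tools. The labels used here name no genome build. Precision is limited by the number of arrays.

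For every gene the brightest probe set was taken among the 23521 naming 1 gene (platform annotation, 0 symbols changed through the reference table), with no filter on dim probe sets. Stat2 KO minus WT differences came from limma 3.58.1 in R 4.3.3 (lmFit, eBayes with an intensity trend, two-sided, Benjamini-Hochberg over 22180 genes, 4 residual and 8.139 prior degrees of freedom), and 95% intervals from the same fit. The procedure was tested on simulated data.

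The genes, lists and tests were chosen with earlier results of these data known. Genes named were Flg, Ivl and Lor, the 3 brightest of each subfamily, the 5 with the smallest p in each direction, the 5 with the widest range, any past the adjusted threshold (0 were), and of other lists up to 3 with the smallest p. Brightest list genes were added after their values were seen. Alternatives were a replicate block, 3 normalizations, a brightness filter, the mean of all probe sets, eBayes without trend or robust, array weights, and each array left out.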

Additional observations from a re-analysis of the deposited data

How the results depend on the processing

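Limits: 3 against 3 tumours, probe sets near the level of olfactory receptor genes and close paralogs limit every value. The replicate block, the fit without trend and the robust fit leave every difference as it is. Of 403 values of the 35 named genes under the 12 settings that can move one, 377 kept their sign, and 25 genes kept it in each setting they were tested in. The named genes include those picked for the smallest p, and the settings reuse the same arrays, so kept signs are no independent support. Lce3d with array weights (0.96, limma adjusted p = 0.037) was the 1 named gene past the adjusted threshold in any setting. The number past it among all 85 genes was 1 with array weights (1.18%, where 1.16% of all genes and 5.88% of olfactory receptor genes passed) and 0 in the other settings.

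Higher genes at an unadjusted limma p under 0.05 numbered 11, against 7 after median centring, 19 with array weights and 2 among the 26 genes brighter than the median gene. Over all genes those shares were 5.34%, 2.95%, 12.1% and 2.71%. With an array left out the higher genes ranged from 7, without Stat2 KO replicate 3 or WT replicate 1, to 14, without Stat2 KO replicate 1. The shares of all genes there were 3.39%, 3.44% and 8.24%. Lower ones numbered 1, against 2 after cyclic loess, 0 among the brighter genes and 0 to 3 with an array left out, 0 without Stat2 KO replicate 2, WT replicate 2 or WT replicate 3 and 3 without WT replicate 1. Of all genes 3.48% were lower, against 3.96% after cyclic loess, 5.75% among the brighter genes and 1.96% without WT replicate 1. Higher genes without overlap numbered 15, against 9 after cyclic loess, 4 among the brighter genes and 18 to 26 with an array left out, 26 and 25 without Stat2 KO replicate 1 and WT replicate 3, where 20.0% and 16.8% of all genes did not overlap, against 8.23% with 6 arrays. After cyclic loess that share was 5.97%, among the brighter genes 3.59%, and without WT replicate 1, where 18 did not overlap, 11.5%. Lower ones numbered 0, against 3 after each of quantile normalization, median centring and cyclic loess and 0 to 5 with an array left out, 5 without WT replicate 1. Of all genes 5.11% were lower without overlap, against 5.47%, 6.54% and 6.13% after those normalizations and 8.1% without WT replicate 1. The median difference was 0.083 to 0.20 and the mean difference 0.10 to 0.20 with an array left out, both lowest without WT replicate 1, while leaving out Stat2 KO replicate 2 gave a median of 0.095. The mean difference was 0.28 over the 8 genes above the 95th percentile of olfactory receptor genes. The cause was not tested.

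These signs turned. After quantile normalization Lce1b was -0.063. After median centring Krt8 was -0.051, Krt83 -0.0094 and Lce1b -0.060. After cyclic loess Lce1b was -0.090. With the mean of both probe sets Lce1m was -0.11. With array weights Krt32 was 0.088, Krt8 -0.089, Krt73 -0.0048, Krt81 -0.018 and Lce1b -0.067. With an array left out the ranges were -0.20 to 0.059 for Krt222, -0.11 to 0.067 for Krt42, -0.16 to 0.079 for Krt32, -0.054 to 0.11 for Krt8, -0.12 to 0.30 for Krt83, -0.019 to 0.17 for Krt81, -0.033 to 0.32 for Krt27 and -0.42 to 0.36 for Lce1b.

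The replicate numbers do not pair the tumours by the labels, and the deviations of same-numbered tumours correlated at 0.24, 0.079 and 0.030 over all genes. With a replicate block 14 genes were higher and 1 lower at the unadjusted p and 0 passed the adjusted threshold. Of all genes 6.44% were higher and 4.76% lower at that p with the block.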
